A study of Mus musculus with 18 samples.

Results

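The core adipogenic factors and their lipid targets were followed here as 10 genes, Pparg, Cebpa, Cebpb, Cebpd, Fabp4, Fabp5, Lpl, Cd36, Plin2, and Adipoq. They were chosen by name, as the rows of the count table whose Ensembl identifier carries one of these symbols in the GENCODE mouse annotation of GRCm38, and make up 10 of its 48023 rows. The rule reads the symbol and no measured value, but the 10 genes were chosen with earlier results of these data known. RNA was sequenced from immortalized mouse brown preadipocytes, which had received vehicle or the growth factor FGF6 for 4, 8, or 24 h, and each of the 6 groups held 3 libraries. FGF6 is a fibroblast growth factor, and the study used these libraries to look for pathways between it and Ucp1, the uncoupling protein of brown fat. The immortalization is common to all groups, no clone is named, and nothing says whether the 3 libraries of a group came from separate cultures. The p-values therefore measure the spread between these libraries, which may be technical.

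PPARγ, encoded by Pparg, is the nuclear receptor without which fat cells do not form. In the classical order of adipogenesis, C/EBPβ and C/EBPδ appear early after the hormonal stimulus and activate Pparg and Cebpa, whose products then maintain each other. PPARγ binds DNA with a retinoid X receptor and switches on genes of fatty acid uptake, transport, and storage, among them Lpl, Cd36, Fabp4, and Adipoq. Plin2 and Fabp5 take part in lipid storage and transport too, but are expressed in many cell types besides fat.

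The libraries held between 24327816 and 33471980 counts each (median 28922204.5), and all 10 genes were among the 15071 with enough counts to be tested. Values are given as counts per 1000000 (CPM) of the total over tested genes, scaled by TMM. This trimmed mean gives each library a factor on the assumption that most genes do not differ between libraries. A count of 3, taken as the lowest that can be told from none, was 0.0905 to 0.126 CPM in a single library. Each of the 18 libraries lay nearest the mean of its own group, but vehicle replicate 3 of 24 h stood apart from the other two of its group. Its counts differed from theirs with a chi-square per degree of freedom of 34.9 and 38.3, against 2.34 to 7.25 for all other pairs within groups. Of 8 preadipocyte and stromal markers, 7 had more than 3 counts in every library, with a summed level of 5000 to 8049 CPM, while Dlk1, often used for preadipocytes, was at 0 in the table and Dpp4 had at most 2 counts. Genes were called at an adjusted p under 0.05. Each p printed beside a difference is that of the quasi-likelihood test in edgeR, adjusted by the Benjamini-Hochberg procedure over all genes tested.

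The sequences upstream of Pparg and Cebpa are shown because these genes encode the pair of factors at the centre of the programme and were both lower with FGF6, and that of Plin2 because it rose with FGF6 at all 3 times. The RefSeq transcription starts used here (GRCm38.p6) numbered 8 for 6 of the 10 genes, with none for Cebpd, Fabp4, Fabp5, and Lpl. Each sequence is the 250 bases before a start, on the strand of the gene. Capitals mark matches, on either strand, to AGGTCA, the half-site of nuclear receptors, to TATAAA, the TATA box, and to TTGCNNAA. The last is the C/EBP palindrome TTGCGCAA with any base at each N, and is not a palindrome itself.
Pparg, most upstream start, chr6:115360894-115361143, plus strand: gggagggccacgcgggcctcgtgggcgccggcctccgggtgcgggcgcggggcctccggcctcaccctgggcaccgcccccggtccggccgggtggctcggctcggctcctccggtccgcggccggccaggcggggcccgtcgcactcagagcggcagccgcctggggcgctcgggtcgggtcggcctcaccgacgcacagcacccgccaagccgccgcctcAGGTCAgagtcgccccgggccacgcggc
Pparg, middle start, chr6:115362099-115362348, plus strand: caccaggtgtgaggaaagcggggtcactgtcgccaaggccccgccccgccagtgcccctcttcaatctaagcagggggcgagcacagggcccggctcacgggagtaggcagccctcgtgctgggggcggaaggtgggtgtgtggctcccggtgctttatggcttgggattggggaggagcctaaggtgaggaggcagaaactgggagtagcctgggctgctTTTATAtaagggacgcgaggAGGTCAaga
Pparg, most downstream start, chr6:115421816-115422065, plus strand: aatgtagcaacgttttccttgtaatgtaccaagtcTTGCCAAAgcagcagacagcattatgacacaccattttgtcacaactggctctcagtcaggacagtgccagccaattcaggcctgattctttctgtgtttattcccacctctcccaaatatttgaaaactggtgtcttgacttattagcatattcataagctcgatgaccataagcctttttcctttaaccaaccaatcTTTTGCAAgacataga
Cebpa, chr7:35119043-35119292, plus strand: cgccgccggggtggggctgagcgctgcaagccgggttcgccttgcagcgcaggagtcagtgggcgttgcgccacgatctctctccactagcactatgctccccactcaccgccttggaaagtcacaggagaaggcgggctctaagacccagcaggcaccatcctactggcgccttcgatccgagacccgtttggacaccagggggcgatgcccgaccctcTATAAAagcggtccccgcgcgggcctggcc
Plin2, chr4:86670060-86670309, minus strand: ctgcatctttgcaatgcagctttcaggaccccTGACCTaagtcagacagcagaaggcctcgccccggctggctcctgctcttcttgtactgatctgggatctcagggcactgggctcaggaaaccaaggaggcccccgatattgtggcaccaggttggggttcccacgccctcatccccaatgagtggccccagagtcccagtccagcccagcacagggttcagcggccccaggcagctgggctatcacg

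The most upstream start of Pparg had 82.4% G and C in this window and 1 half-site, at -28 to -23 from the start. The middle start had 63.6% G and C, a TATA box on the other strand at -29 to -24, and a half-site at -9 to -4. The most downstream start had 40.8% G and C and 2 C/EBP matches, at -215 to -208 and at -16 to -9, of which the second lies on the other strand. The window of Cebpa held a TATA box at -30 to -25, and that of Plin2 a half-site on the other strand at -218 to -213. Over all 32851 starts in the table, AGGTCA was found in 14%, TTGCNNAA in 9.56%, and TATAAA in 12.4%, with a median G and C content of 52.4%. None of the 8 starts of the 6 genes held the full C/EBP palindrome TTGCGCAA (0.164% of all starts) or the cyclic AMP response element TGACGTCA (1.55%). None held the AP-1 motif TGANTCA (6.75%) or direct repeat 1, the paired half-sites bound by PPARγ with its partner (0.0335%). Cebpd, Fabp4, Fabp5, and Lpl had no start here and were not searched. TTGCGCAA is a special case of TTGCNNAA, and direct repeat 1 holds AGGTCA within it. Of the 8 starts, AGGTCA was found in 4, TATAAA in 2, and TTGCNNAA in 1. The 4 include the start of Cd36, whose first bases were not found in a GENCODE transcript of that gene. A match describes the letters only, and the counts per gene do not tell the starts of Pparg apart.

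FGF6 split the 10 genes. Pparg, Cebpa, and Lpl were lower and Cebpd, Fabp5, and Plin2 higher than with vehicle at 4, 8, and 24 h, and Fabp4, Cd36, and Adipoq became lower at 8 and 24 h. At 4 h, 3 of the 10 were called higher, where 28.6% of all tested genes were, and 4 were called lower, against 34.2% of all. At 8 h the counts were 3 higher (32.4% of all genes) and 6 lower (38.4%), and at 24 h they were again 3 higher (35.9%) and 6 lower (37.9%). At 4 h both shares were thus close to those of all genes. Without vehicle replicate 3, the same 3 genes were called higher and the same 6 lower at 24 h, with log2 fold changes of -1.98 for Pparg, -2.14 for Cebpa, 0.60 for Cebpd, -1.16 for Fabp4, 0.54 for Fabp5, -4.04 for Lpl, -3.53 for Cd36, and 0.50 for Plin2. The call of Adipoq was kept as well (edgeR adjusted p = 5.75e-08). The median log2 fold change of the 10 was -0.08 at 4 h, -0.35 at 8 h, and -1.65 at 24 h, against -0.05, -0.05, and -0.02 over all genes tested. At 4 h the split of all calls depended on the scaling, with 4309 genes higher and 5157 lower under TMM and 3248 and 6487 under library sizes alone, which moved the median of all genes from -0.05 to -0.15. Of 15071 genes, 9466, 10675, and 11131 were called at 4, 8, and 24 h, whereas TMM assumes that most do not differ.

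**Figure D1:**
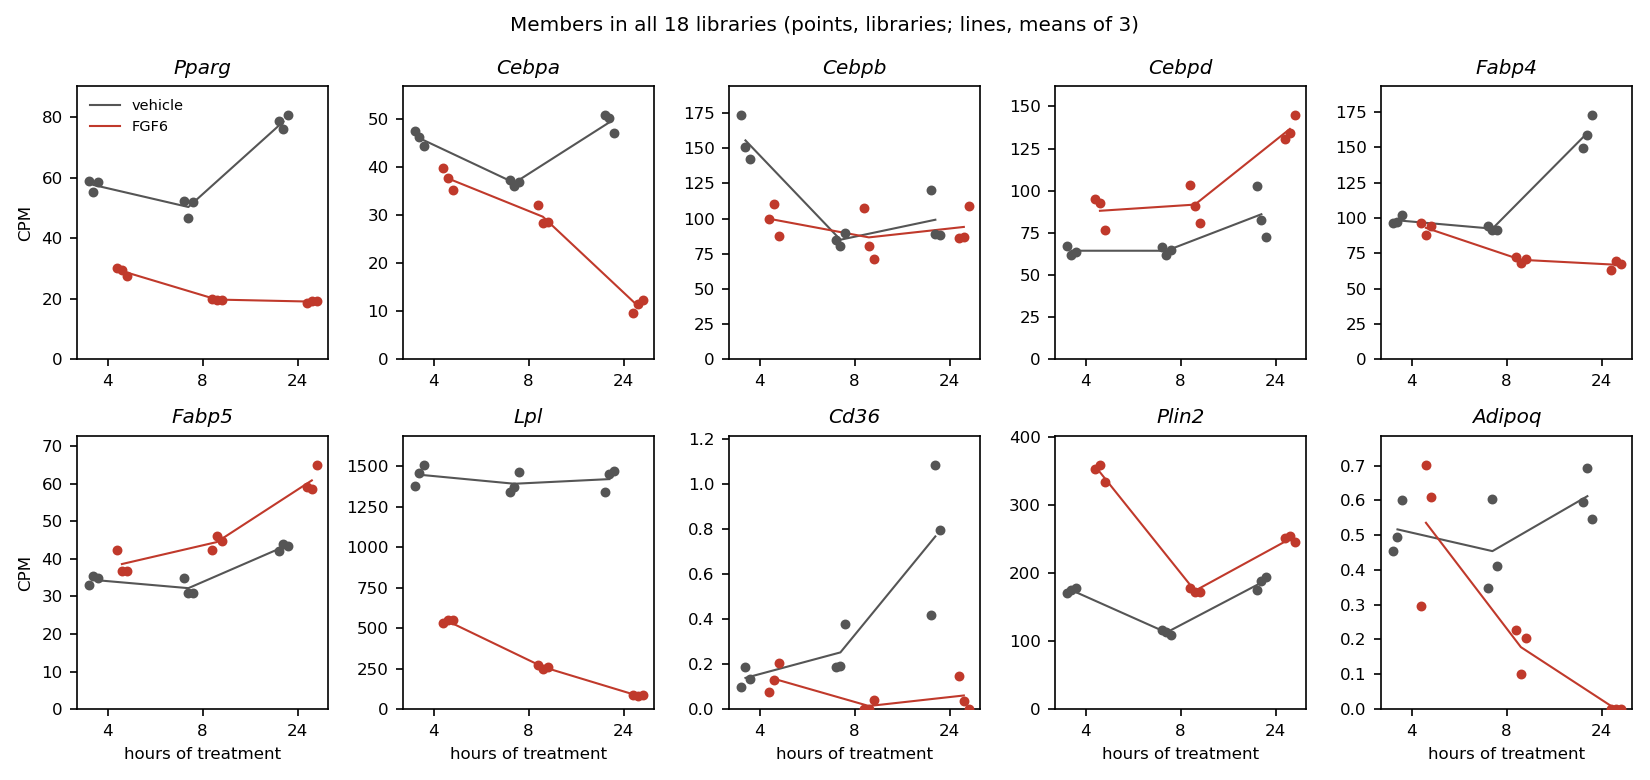
Level in CPM (vertical axes, linear, each from 0) of the 10 genes at 4, 8, and 24 h of treatment (horizontal axes), with 1 point per library and lines through the means of the 3 vehicle (grey) and the 3 FGF6 (red) libraries. Pparg, Cebpa, and Lpl lie lower with FGF6 at every time and Cebpd, Fabp5, and Plin2 higher, while the 3 FGF6 libraries of Adipoq reach 0 at 24 h.

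Among the transcription factors, Pparg (ENSMUSG00000000440, chromosome 6 of GRCm38, 115360951 to 115490399, plus strand) was lower with FGF6 at every time. At 4 h Pparg had 58.9, 55.2, and 58.6 CPM with vehicle and 30.2, 29.6, and 27.6 CPM with FGF6. At 8 h the values were 52.4, 46.6, and 51.9 CPM with vehicle and 19.9, 19.6, and 19.6 CPM with FGF6, and at 24 h they were 78.7, 76.2, and 80.6 CPM with vehicle and 18.7, 19.1, and 19.3 CPM with FGF6. Every FGF6 library lay below every vehicle library at each time, and the FGF6 libraries at 8 and 24 h were nearly level. The log2 fold change of Pparg was -0.98 at 4 h (standard error 0.05, edgeR adjusted p = 1.09e-20), -1.35 at 8 h, and -2.04 at 24 h (standard error 0.05, edgeR adjusted p = 8.06e-32), that is 4.12-fold lower after 24 h. None of its exonic bases is shared with another annotated gene.

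Cebpa (ENSMUSG00000034957, chromosome 7, 35119293 to 35121928, plus strand) encodes C/EBPα, the factor that keeps Pparg active in fat cells. Its 4 h values were 47.4, 46.1, and 44.3 CPM with vehicle and 39.9, 37.7, and 35.3 CPM with FGF6. After 8 h, Cebpa had 37.2, 35.98, and 36.8 CPM with vehicle and 31.97, 28.3, and 28.6 CPM with FGF6, and after 24 h it had 50.7, 50.1, and 46.96 CPM with vehicle and 9.56, 11.5, and 12.2 CPM with FGF6. The groups did not overlap at any time, but the distance between them was small until 8 h and wide at 24 h. The log2 fold changes were -0.29, -0.31, and -2.15 (standard errors 0.06, 0.06, and 0.07, edgeR adjusted p = 2.68e-05, 1.68e-05, and 7.07e-29), so Cebpa was 1.24-fold lower at 8 h and 4.44-fold lower at 24 h. Of its 2636 exonic bases, 51 lie opposite Gm45091, which had too few counts to be tested.

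Cebpb (ENSMUSG00000056501, chromosome 2, 167688915 to 167690418, plus strand) encodes C/EBPβ, an early factor of adipogenesis. It was lower with FGF6 at 4 h, with 173, 151, and 142 CPM with vehicle and 99.98, 110.31, and 87.4 CPM with FGF6. At 8 h Cebpb had 84.8, 80.4, and 89.7 CPM with vehicle and 108, 80.8, and 71.4 CPM with FGF6, and at 24 h it had 120.15, 88.9, and 88.5 CPM with vehicle and 86.2, 87.2, and 109 CPM with FGF6. The 4 h groups were apart, whereas those at 8 and 24 h overlapped. The 4 h log2 fold change of -0.65 passed the threshold (standard error 0.16, edgeR adjusted p = 0.00369). At 8 h it was 0.03 (95% interval -0.30 to 0.36, edgeR adjusted p = 0.868) and at 24 h -0.08 (95% interval -0.41 to 0.25, edgeR adjusted p = 0.692). These intervals are 1.96 standard errors of the fit on either side. Its direction at 8 and 24 h changed with the scaling or with 1 library left out. Cebpb shares 312 of 1504 exonic bases with Tmem189 on the opposite strand, whose log2 fold changes were 0.15, 0.11, and 0.14, and whether reads were counted by strand is not given in the sources used here.

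Cebpd (ENSMUSG00000071637, chromosome 16, 15887286 to 15891031, plus strand), which encodes the other early C/EBP factor, was the transcription factor of the 10 that rose. The 4 h libraries had 67.4, 62.03, and 63.7 CPM with vehicle and 94.99, 92.8, and 76.4 CPM with FGF6. Those of 8 h had 66.5, 61.98, and 64.6 CPM with vehicle and 103, 91.2, and 80.7 CPM with FGF6, and those of 24 h had 103, 82.8, and 72.4 CPM with vehicle and 131, 134, and 145 CPM with FGF6. All FGF6 libraries were above all vehicle libraries at each time. The log2 fold changes were 0.45, 0.51, and 0.66 (standard errors 0.12, 0.12, and 0.12, edgeR adjusted p = 0.00633, 0.00234, and 2.36e-04), the last a 1.59-fold increase. Cebpd shares 562 of 3746 exonic bases with Spidr on the opposite strand, which changed by -0.20, -0.36, and 0.05.

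Of the lipid genes, Lpl (ENSMUSG00000015568, chromosome 8, 68880491 to 68907448, plus strand) changed most among those with high counts. Lpl encodes lipoprotein lipase, which releases fatty acids from circulating triglyceride. After 4 h, Lpl had 1379, 1459, and 1508 CPM with vehicle and 531, 549, and 549 CPM with FGF6. After 8 h the level with vehicle was 1341, 1373, and 1464 CPM, and with FGF6 it was 275, 245, and 261 CPM. After 24 h the vehicle libraries had 1339, 1454, and 1471 CPM and the FGF6 libraries 85.5, 78.2, and 84.3 CPM. Vehicle libraries thus kept to 1 range over time while those with FGF6 stood lower at each later time. Lpl was 2.67-fold lower at 4 h, 5.35-fold lower at 8 h, and 17.2-fold lower at 24 h, with log2 fold changes of -1.42, -2.42, and -4.10 (standard error 0.05 and edgeR adjusted p = 5.02e-23 at 24 h).

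Fabp4 and Fabp5 encode carriers that move fatty acids inside the cell, and they went opposite ways. Fabp4 (ENSMUSG00000062515, chromosome 3, 10204088 to 10208576, minus strand), the form typical of fat cells, had 96.2, 96.9, and 102 CPM with vehicle and 96.5, 87.9, and 94.4 CPM with FGF6 at 4 h. Its 8 h values were 94.1, 91.2, and 91.8 CPM with vehicle and 72.2, 68.3, and 70.6 CPM with FGF6. Its 24 h values were 149, 158, and 173 CPM with vehicle and 63.3, 69.8, and 67.6 CPM with FGF6. The groups overlapped at 4 h and were apart later. The 4 h log2 fold change of -0.08 missed the threshold (95% interval -0.17 to 0.0038, edgeR adjusted p = 0.102) and passed it when only library sizes (-0.18, edgeR adjusted p = 1.88e-04) or upper-quartile factors (-0.14, edgeR adjusted p = 0.00524) set the scale. Fabp4 changed by -0.39 at 8 h and by -1.26 at 24 h, when it was 2.39-fold lower (edgeR adjusted p = 1.96e-25).

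Fabp5 (ENSMUSG00000027533, chromosome 3, 10012548 to 10016607, plus strand) is the form that many tissues share. It had 33.01, 35.3, and 34.8 CPM with vehicle and 42.2, 36.8, and 36.8 CPM with FGF6 at 4 h. With 8 h of treatment Fabp5 had 34.8, 30.8, and 30.98 CPM with vehicle and 42.5, 46.1, and 44.8 CPM with FGF6, and with 24 h it had 42.2, 44.00, and 43.3 CPM with vehicle and 59.2, 58.5, and 64.96 CPM with FGF6. No group overlapped its vehicle group, but at 4 h the gap was narrow. The 4 h log2 fold change was 0.17 (edgeR adjusted p = 0.0102), and scaled by library sizes only it was 0.07 (edgeR adjusted p = 0.330), with upper-quartile factors 0.11 (edgeR adjusted p = 0.0907), without vehicle replicate 1 0.14 (edgeR adjusted p = 0.0572), and without FGF6 replicate 1 0.12 (edgeR adjusted p = 0.0782). The increases of 0.46 at 8 h and 0.50 at 24 h were past the threshold (edgeR adjusted p = 1.23e-09 and 7.55e-11). Of the 50-base stretches of Fabp5 exons, 5.48% also occur in processed pseudogenes such as Gm6166, and how reads with several matches were counted is not given in the sources used here.

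Plin2 (ENSMUSG00000028494, chromosome 4, 86648386 to 86670060, minus strand), which encodes the perilipin that coats lipid droplets in most cell types, rose early. At 4 h Plin2 had 171, 175, and 178 CPM with vehicle and 352, 358, and 333 CPM with FGF6. Both groups were lower at 8 h, with 116, 113, and 108 CPM with vehicle and 178, 171, and 171 CPM with FGF6. At 24 h the libraries had 175, 188, and 194 CPM with vehicle and 251, 254, and 245 CPM with FGF6. The FGF6 libraries were above all vehicle libraries at each time, by 1.99-fold at 4 h, 1.54-fold at 8 h, and 1.35-fold at 24 h. The log2 fold changes of Plin2 were 0.99, 0.63, and 0.43 (standard error 0.04 in each, edgeR adjusted p = 4.10e-26, 4.03e-19, and 3.43e-14).

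Cd36 (ENSMUSG00000002944, chromosome 5, 17781690 to 17888801, minus strand), a membrane protein that takes up fatty acids, was counted only a few times per library. At 4 h there were 3, 6, and 4 counts with vehicle and 2, 4, and 5 with FGF6. At 8 h there were 6, 6, and 11 with vehicle and 0, 0, and 1 with FGF6, and at 24 h 12, 36, and 19 with vehicle and 4, 1, and 0 with FGF6. The 4 h groups overlapped, and the later ones did not. In counts summed over the group and scaled for depth, Cd36 with FGF6 was 0.0473 of its vehicle level at 8 h (1 against 23 counts, exact 95% interval 0.00115 to 0.292) and 0.0772 of it at 24 h (5 against 67 counts, 0.0243 to 0.189), intervals that cover counting error only. Both decreases passed the test (edgeR adjusted p = 6.15e-04 and 1.62e-06), whereas at 4 h the ratio was 0.949 (0.385 to 2.30, edgeR adjusted p = 0.942). Cd36 had enough counts to be tested only through the vehicle libraries of 24 h (0.420 to 1.09 CPM), the group where it was highest. Fitted with the libraries of 4 h or of 8 h alone, it had too few to be tested. The fitted log2 fold change of Cd36 at 8 h went from -3.98 to -5.87 without FGF6 replicate 3, the 1 library of its group with a count. At 24 h it went from -3.59 to -5.08 without FGF6 replicate 1 and to -3.00 without FGF6 replicate 3, and the decrease passed the test in each of these fits.

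Adipoq (ENSMUSG00000022878, chromosome 16, 23146536 to 23158028, plus strand) encodes adiponectin, the hormone that mature fat cells secrete. It too had few counts, with 14, 16, and 18 with vehicle and 8, 22, and 15 with FGF6 at 4 h. At 8 h Adipoq had 11, 19, and 12 counts with vehicle and 7, 3, and 5 with FGF6, and at 24 h 17, 23, and 13 with vehicle and 0 in all 3 libraries with FGF6. The groups overlapped at 4 h only. Summed counts with FGF6 were 1.05 times those with vehicle at 4 h (exact 95% interval 0.684 to 1.61) and 0.389 times at 8 h (0.200 to 0.716). The 8 h decrease passed the test (edgeR adjusted p = 0.0122) but not without vehicle replicate 2 (edgeR adjusted p = 0.0790) or FGF6 replicate 2 (edgeR adjusted p = 0.0782). At 24 h there were 0 against 53 counts, an exact 95% interval of 0 to 0.0746 times vehicle, and the decrease passed the test (edgeR adjusted p = 1.80e-08). With each FGF6 library set to the floor of 3 counts Adipoq was at least 5.62-fold lower, a bound that carries no test.

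**Figure D2:**
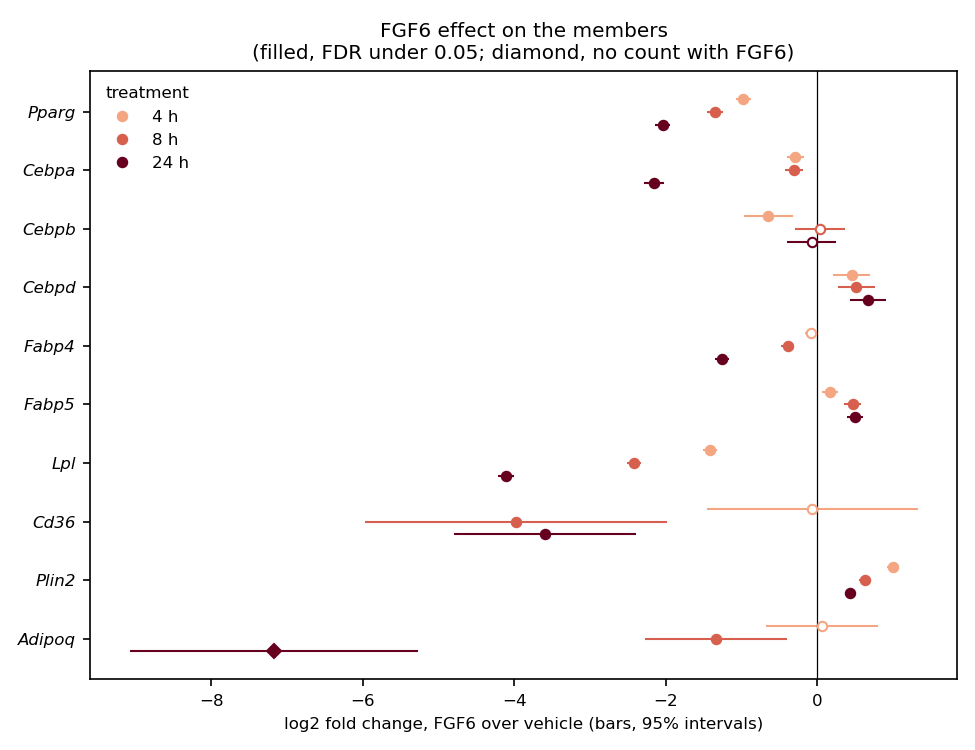
Log2 fold change of FGF6 over vehicle (horizontal axis) for each of the 10 genes at 4, 8, and 24 h (light to dark), with 95% intervals (1.96 standard errors of the fit) as bars and filled points for edgeR adjusted p under 0.05. Lpl moves from -1.42 to -4.10 and Pparg from -0.98 to -2.04, Cebpd, Fabp5, and Plin2 lie right of 0 at each time, and the diamond of Adipoq at 24 h is a called value fitted to a group with no count and not a bound.

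The effect of FGF6 differed between time points for most of the 10 genes. Between 4 and 8 h it differed for 7 of them, where 30.9% of all tested genes did, between 8 and 24 h for 6 (45.2% of all), and between 4 and 24 h for 8 (53.5% of all). Between 4 and 24 h the log2 fold change of Lpl moved by -2.69, that of Cebpa by -1.86, that of Fabp4 by -1.18, and that of Pparg by -1.06 (edgeR adjusted p = 1.86e-17, 1.87e-21, 5.59e-19, and 3.86e-16). Plin2 moved toward 0 by -0.57, and Fabp5 away from it by 0.33. For Cebpd the difference was 0.21 and missed the threshold (95% interval -0.13 to 0.55, edgeR adjusted p = 0.340).

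The cells with vehicle changed over time as well. From 4 to 8 h, 4 of the 10 genes were called with vehicle (43.2% of all genes tested), Pparg, Cebpa, Cebpb, and Plin2, and all 4 fell. From 8 to 24 h, 7 were called (49.4% of all) and all 7 rose, by 0.79 for Fabp4, 0.72 for Plin2, 0.64 for Pparg, 0.43 for Cebpa, 0.42 for Fabp5, 0.42 for Cebpd, and 1.62 for Cd36 on the log2 scale. With FGF6, 8 were called from 4 to 8 h (48.5% of all), of which Fabp5 rose and 7 fell. From 8 to 24 h with FGF6, 6 were called (62.3% of all), Cebpd, Fabp5, and Plin2 higher and Cebpa, Lpl, and Adipoq lower.

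Set side by side, these changes give the later part of the FGF6 effect in different forms, shown here for Pparg, Fabp4, Lpl, and Cebpa. From 8 to 24 h Pparg rose by 0.64 with vehicle and changed by -0.05 with FGF6 (edgeR adjusted p = 0.473), and Fabp4 rose by 0.79 with vehicle and changed by -0.07 with FGF6 (edgeR adjusted p = 0.159). In Lpl it was the FGF6 libraries that moved, by -1.66, against 0.03 with vehicle (edgeR adjusted p = 0.631). Cebpa moved in both, by -1.42 with FGF6 and by 0.43 with vehicle.

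Levels were set between genes only per length, as CPM per kb of merged exon. With vehicle at 24 h, Lpl was highest at 136 ± 6.84 CPM per kb (SD, n = 3), followed by Cebpb (65.9 ± 12.1), Plin2 (52.9 ± 2.82), Fabp4 (35.7 ± 2.60), Pparg (26.6 ± 0.747), Cebpd (22.96 ± 4.14), Cebpa (18.7 ± 0.764), and Fabp5 (12.1 ± 0.259). Adipoq (0.443 ± 0.0542) and Cd36 (0.214 ± 0.0930) were far below these. Of these neighbours only Pparg and Cebpd had libraries that overlapped. With FGF6 at 24 h the order began with Plin2 (71.1 ± 1.25) and Cebpb (62.5 ± 8.47), whose libraries overlapped, then Cebpd (36.5 ± 1.93), Fabp5 (17.1 ± 0.994), Fabp4 (14.9 ± 0.734), Lpl (7.89 ± 0.376), Pparg (6.45 ± 0.0991), and Cebpa (4.21 ± 0.523). Lpl thus went from the first place to the sixth. The Fabp5 libraries lay below those of Pparg, Cebpa, and Fabp4 with vehicle and above them with FGF6, and those of Cebpd lay below Fabp4 with vehicle and above it with FGF6. Merged exons are longer than most single transcripts, so these levels are comparable between genes only roughly.

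**Figure D3:**
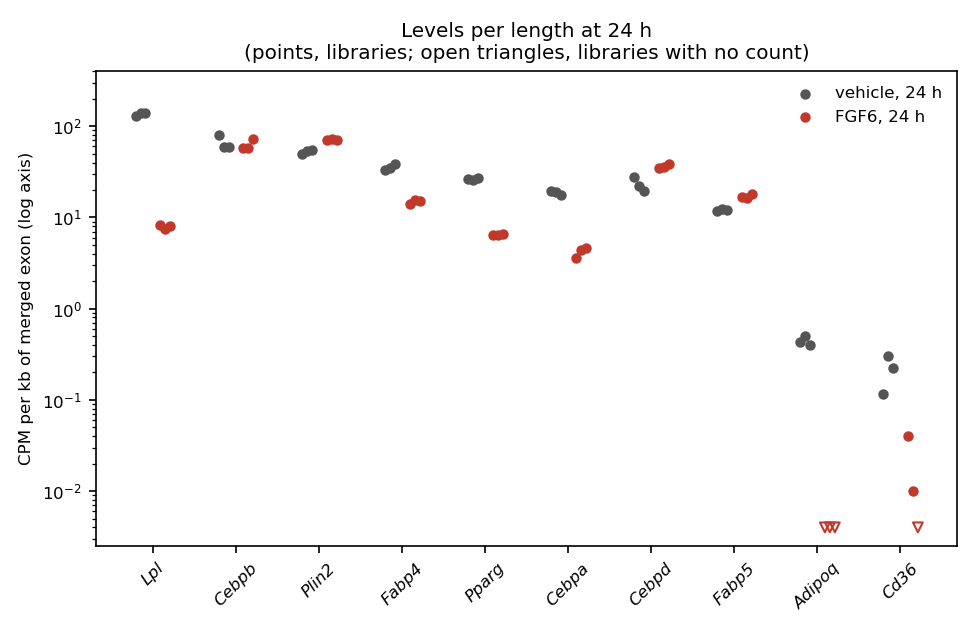
Level per length at 24 h, as CPM per kb of merged exon on a log axis, for each gene in the 3 vehicle (grey) and 3 FGF6 (red) libraries, ordered by the mean over vehicle libraries at 4 h, with open triangles for libraries with no count. Lpl drops from about the top of the range to below Cebpd and Fabp5, and Adipoq has no count in the 3 FGF6 libraries.

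Ratios between related genes in the same library do not depend on the scaling, and a pair of them was taken after the values were seen. The level per length of Cebpd over that of Cebpa was 0.946 to 1.01 with vehicle and 1.52 to 1.73 with FGF6 at 4 h, 1.21 to 1.26 and 1.99 to 2.28 at 8 h, and 1.08 to 1.43 and 8.22 to 9.63 at 24 h. The ratio of Fabp5 to Fabp4 was 0.431 to 0.459 with vehicle and 0.491 to 0.551 with FGF6 at 4 h, 0.425 to 0.466 and 0.740 to 0.851 at 8 h, and 0.316 to 0.355 and 1.06 to 1.21 at 24 h. In each of these 6 comparisons all FGF6 libraries were above all vehicle libraries. The ratios describe genes already seen to go opposite ways and carry no test.

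Around these factors, 18 other regulators of adipogenesis were listed and all were tested. At 4 h 6 rose and 8 fell (28.6% and 34.2% of all tested genes did), at 8 h 5 rose and 11 fell (32.4% and 38.4% of all), and at 24 h 4 rose and 12 fell (35.9% and 37.9% of all), with a median log2 fold change of -0.37 at 24 h. Zfp423, which commits cells to the fat lineage, had 10.98 ± 1.30 CPM with vehicle and 0.801 ± 0.360 CPM with FGF6 at 24 h (SD, n = 3), which is -3.78 as a log2 fold change (edgeR adjusted p = 1.15e-22). Klf15 and Stat5a, activators of Pparg expression, changed by -2.52 and -2.37 on the log2 scale. Egr2 and Klf5, early activators of the programme, went the other way, from 9.88 ± 1.98 to 143 ± 1.52 CPM and from 3.22 ± 0.385 to 18.2 ± 0.746 CPM at 4 h, log2 fold changes of 3.85 and 2.50.

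Of 19 inhibitors of adipogenesis, 17 were tested. At 4 h 7 rose and 7 fell, at 8 h 8 rose and 8 fell, and at 24 h 7 rose and 8 fell, where higher and lower calls were also of similar number among all genes tested (28.6% and 34.2%, 32.4% and 38.4%, and 35.9% and 37.9%). Sox9, which represses Cebpb and Cebpd, rose by 2.77 at 4 h and 2.60 at 24 h. Wnt10b, a secreted inhibitor, changed by -2.98 at 4 h and -2.43 at 24 h, and Gata3, which represses Pparg, by -3.60 at 24 h. Among 13 tested partners and cofactors of nuclear receptors, of 14 listed, 2, 3, and 3 were higher and 5, 5, and 4 lower at 4, 8, and 24 h. Of all tested genes, 28.6%, 32.4%, and 35.9% were higher and 34.2%, 38.4%, and 37.9% lower. Rxra, the partner of PPARγ, which is also counted among the 18 regulators, changed by -0.36 at 24 h, and the coactivators Ncoa1 and Ncoa3 by -0.88 and 0.52.

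Among 31 other lipid genes of fat cells, 24 were tested. At 4 and at 8 h 5 rose and 15 fell, and at 24 h 2 rose and 20 fell, with median log2 fold changes of -0.34, -0.54, and -0.77. Of all tested genes, 28.6%, 32.4%, and 35.9% rose and 34.2%, 38.4%, and 37.9% fell at these times. Plin4, a lipid droplet coat protein of fat cells, had 548 ± 18.5 CPM with vehicle and 53.97 ± 5.24 CPM with FGF6 at 24 h, which is -3.34 as a log2 fold change (edgeR adjusted p = 1.77e-22). Cidec, which fuses lipid droplets, and Mgll, which cleaves monoglycerides, changed by -4.64 and -4.47 at 24 h. Plin1, chosen here after its values were seen, had 74 counts in the 3 vehicle libraries and 0 in those with FGF6 at 24 h, which is 0 to 0.0529 times vehicle (exact 95% interval). With each FGF6 library set to the floor of 3 counts it was at least 7.93-fold lower. Plin2 was thus the 1 of 4 tested perilipin genes that rose, since Plin1, Plin3 (-0.58 at 24 h), and Plin4 fell at each time.

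Members of the C/EBP and fatty acid binding protein families went both ways, as did all tested genes (35.9% higher and 37.9% lower at 24 h). Of the 6 listed C/EBP genes, 5 were tested, and at 24 h Cebpd rose while Cebpa, Cebpg, and Ddit3 (-1.29) fell. Of 9 fatty acid binding proteins 3 were tested, and Fabp5 was the 1 that rose at 24 h. Among genes that handle lipoprotein lipase, 4 of 10 were tested. Angptl4, a secreted inhibitor of the enzyme and itself a target of PPAR receptors, rose by 0.70 at 4 h and changed by -1.04 at 24 h. Sel1l and Lmf1, needed for the lipase to fold and leave the cell, changed by -0.61 and -0.54 at 24 h, and Lipg, a related lipase, rose by 1.01 at 4 h.

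**Figure D4:**
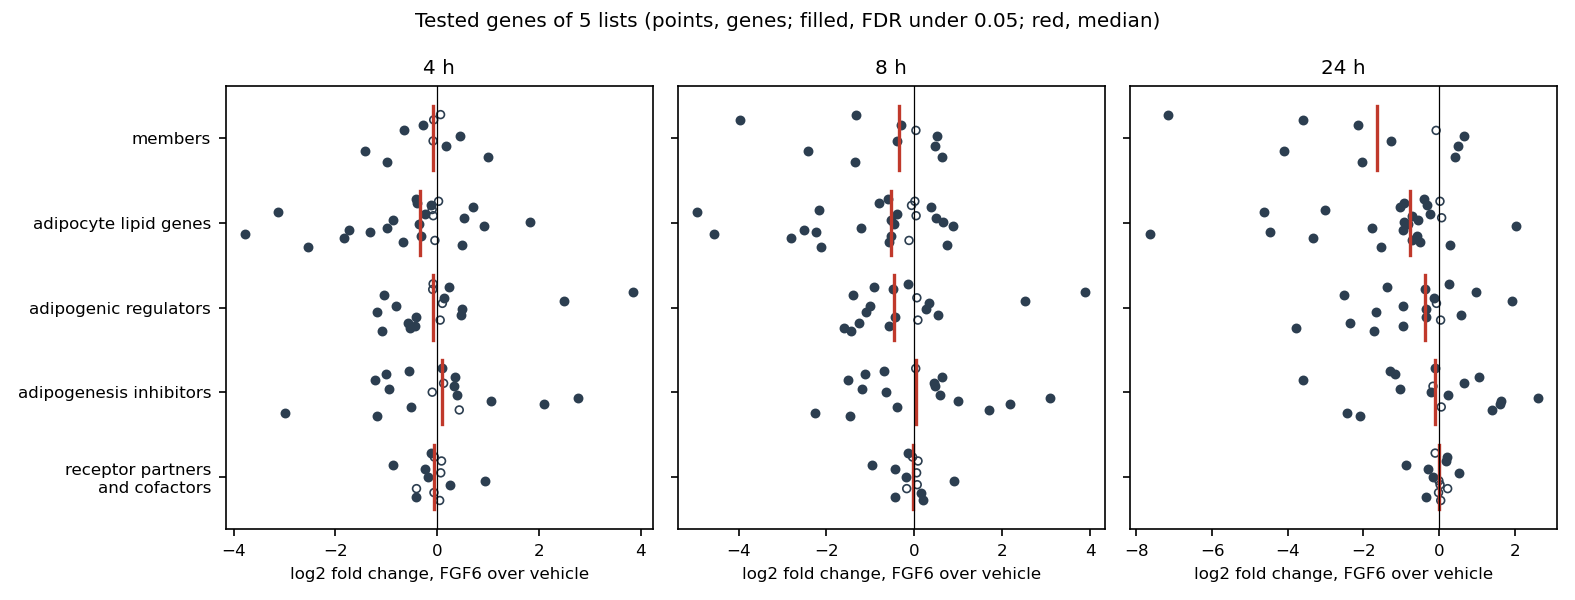
Log2 fold change of FGF6 over vehicle (horizontal axes, a range of its own at each time) for the tested genes of 5 lists, with 1 point per gene, filled for edgeR adjusted p under 0.05, and a red line at the median. At 24 h the median is -1.65 for the 10 genes, -0.77 for other lipid genes, -0.37 for other regulators, and near 0 for inhibitors and receptor partners, and the leftmost points, Adipoq and Plin1, are fitted values for groups with no count.

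Over the 18 libraries, the 3 genes whose log2 CPM was most like that of Pparg, among 12298 with a mean of at least 1 CPM, included Flcn (r = 0.992) and Dmpk (0.991). Those most like Lpl were Rnf144a (0.997), Arid5b (0.996), and Notch3 (0.994), those most like Plin2 were Klf13 (0.954), Pip4k2b (0.947), and Lipg (0.937), and those most like Cebpb were Armc5 (0.861), Zfp746 (0.814), and Tjap1 (0.807). Between the 10 genes themselves, Cebpa and Adipoq had r = 0.943, Lpl and Cebpa 0.917, Lpl and Adipoq 0.915, Pparg and Lpl 0.911, and Cebpd and Fabp5 0.906. Cebpd and Lpl had -0.865. Adipoq had few counts and none in the 3 FGF6 libraries of 24 h, so its correlations rest in part on a group at the floor. The libraries form 6 groups that share a treatment and time, so these values describe the group means and carry no test.

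Markers of several cell types moved with these genes. At 24 h, 2 of the 7 tested preadipocyte and stromal markers rose and 5 fell (35.9% and 37.9% of all tested genes did). Cd34 and Vim were the 2 that rose, while Pdgfra, Pdgfrb, Ly6a, Ebf2, and Col1a1 fell. In bulk RNA, fewer cells of a type and less RNA per cell cannot be told apart. The summed level of 8 mature adipocyte markers, of which Adipoq is 1, was 17.99 to 38.7 CPM with vehicle and 7.19 to 9.50 CPM with FGF6. Most of this sum was Lipe, with 29.98 ± 2.23 CPM with vehicle and 8.70 ± 0.531 CPM with FGF6 at 24 h (SD, n = 3). Of the 8 markers, 1 had more than 3 counts in all 3 FGF6 libraries of 24 h, and Lep, the gene of leptin, was at 0 in all libraries. Of the 6 macrophage markers, Ptprc and Adgre1 had at most 2 counts, while Mrc1 was higher with FGF6 (4.09 at 24 h) and Csf1r lower. Cd68 was higher with FGF6 at 4 h (11.1 with vehicle and 16.5 CPM with FGF6) and lower at 24 h (5.83 and 3.24 CPM). The sum of the 6 was 6.82 to 15.5 CPM with vehicle and 15.3 to 20.2 CPM with FGF6. At 24 h most of the FGF6 sum was Mrc1, which had 0.755 CPM with vehicle and 12.3 CPM with FGF6. Of the 6 endothelial markers, Pecam1 had at most 7 counts and Emcn at most 3, and 2 were tested. At 24 h Cdh5 rose by 5.84, from 0.0582 ± 0.0505 to 3.59 ± 0.638 CPM (SD, n = 3), Kdr changed by 0.39 and missed the threshold (edgeR adjusted p = 0.262), and Tek had 3 to 8 counts with vehicle and 0 with FGF6. The sum of the 6 was 0.377 to 1.70 CPM with vehicle and 1.96 to 5.65 CPM with FGF6 over all times. The 6 muscle markers summed to 7.46 to 16.3 CPM with vehicle and 1.86 to 8.43 CPM with FGF6, and Myf5 was at 0. The part of these markers in the changes of the 10 genes was not tested.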

How the data were processed

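RNA-seq was performed on 18 libraries of vehicle- or FGF6-treated brown preadipocytes, grouped by treatment and time from the labels. Per the labels and the methods, the authors aligned reads to GRCm38 with STAR and deposited raw read counts per gene from Subread featureCounts, without versions, filter, or normalization. Identifiers were named from GENCODE M21, which held 98.5% of the rows. The 10 genes, the other gene lists, and the tests were chosen with earlier results of these data known. Counts were scaled by TMM and fitted with edgeR 4.0.16 (R 4.3.3) in a quasi-likelihood model of 6 group means, after filterByExpr left 15071 genes, with Benjamini-Hochberg adjustment over all of them. The script was tested on simulated data. The call was an adjusted p under 0.05. The study used limma-voom and a false discovery rate of 0.25, which were run as alternatives, as were DESeq2 1.42.0 (limma 3.58.1), upper-quartile factors, library sizes without factors, all genes with any count, a minimum of 10 counts per library, the compared time points alone, the replicate number as a block, and each library left out. Named genes were the 10, up to 3 genes per list with the largest called change at 24 h and up to 2 at 4 h (mean of at least 1 CPM), and the 3 most correlated with Pparg, Cebpb, Lpl, and Plin2. Results for 2 genes that this rule or the gene lists hold are not reported here. Exact intervals of summed counts and floors cover counting error only, whereas intervals of log2 fold changes are 1.96 standard errors of the edgeR fit.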

Additional observations from a re-analysis of the deposited data

Results flagged for a closer look

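The effect of FGF6 on log2 expression differed between time points in 21 tests of these genes. Each test is a difference of fold changes from the same edgeR model, with Benjamini-Hochberg adjustment over all genes tested. The effect differed for 7 of the 10 genes between 4 and 8 h, where 30.9% of all tested genes did. It differed for 6 of the 10 between 8 and 24 h (45.2% of all). It differed for 8 of the 10 between 4 and 24 h (53.5% of all). Between 4 and 8 h it moved by -0.37 for Pparg (edgeR adjusted p = 1.21e-04), 0.68 for Cebpb (0.0439), -0.31 for Fabp4 (1.36e-04), 0.30 for Fabp5 (0.00349), -1.003 for Lpl (6.31e-10), -3.91 for Cd36 (0.0211), and -0.37 for Plin2 (2.52e-07). Between 8 and 24 h it moved by -0.69 for Pparg (edgeR adjusted p = 3.48e-10), -1.85 for Cebpa (8.79e-21), -0.87 for Fabp4 (1.37e-14), -1.69 for Lpl (6.78e-14), -0.20 for Plin2 (0.00136), and -5.83 for Adipoq (4.48e-04). Between 4 and 24 h it moved by -1.06 for Pparg (edgeR adjusted p = 3.86e-16), -1.86 for Cebpa (1.87e-21), -1.18 for Fabp4 (5.59e-19), 0.33 for Fabp5 (4.51e-04), -2.69 for Lpl (1.86e-17), -3.52 for Cd36 (0.00345), -0.57 for Plin2 (8.90e-13), and -7.24 for Adipoq (8.84e-07). The values of Cd36 and Adipoq rest on groups with few counts or none and are not bounds, and Cd36 moved by -5.83 between 4 and 8 h without FGF6 replicate 3 of 8 h and by -5.04 between 4 and 24 h without FGF6 replicate 1 of 24 h. The difference for Cebpb between 4 and 8 h lost its call without the filter on low counts (edgeR adjusted p = 0.0875) and in 9 of the 12 fits with a library left out (edgeR adjusted p = 0.0555 to 0.117), all but those without vehicle replicate 3 or FGF6 replicate 2 at 4 h or FGF6 replicate 3 at 8 h. That for Cd36 lost it in 4 of 12, without FGF6 replicate 3 at 4 h or without vehicle replicate 3 or FGF6 replicate 1 or 2 at 8 h (edgeR adjusted p = 0.0551 to 0.0678). Groups of 3 libraries were not tested for outliers.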

How the results depend on the processing

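No count of called genes moved by over 1.5 times under any alternative. Of 826 values recomputed for these results, 792 kept their direction and side of the threshold, 12 changed direction, 20 lost a call, and 2 gained one. All 12 changes of direction were in differences that were not called. For Adipoq at 4 h (0.07) the log2 fold change was -0.0057 with limma-voom, -0.036 with library sizes alone, and from -0.18 (without FGF6 replicate 2) to 0.38 with 1 library left out, being -0.018 without vehicle replicate 1. For Cd36 at 4 h (-0.07) it was 0.20 without vehicle replicate 2 and ranged from -0.40 to 0.23 (without FGF6 replicate 1). For Cebpb at 8 h (0.03) it was -0.031 with library sizes alone, -0.012 with upper-quartile factors, -0.0052 without vehicle replicate 2, and from -0.16 (without FGF6 replicate 1) to 0.19 with 1 library left out, and at 24 h (-0.08) it was 0.026 without FGF6 replicate 1 and ranged from -0.15 to 0.13 (without vehicle replicate 1). The cause was not tested.

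Leaving out 1 library at a time, the genes called higher numbered 2 to 3 at 4 h and 3 at 8 and at 24 h, those called lower 4 at 4 h, 5 to 6 at 8 h, and 6 at 24 h, and those whose effect differed 5 to 7 between 4 and 8 h, 6 between 8 and 24 h, and 8 to 9 between 4 and 24 h. With vehicle 4 to 5 were called from 4 to 8 h and 6 to 7 from 8 to 24 h, and with FGF6 7 to 8 and 6. Cebpb between 4 and 8 h (0.68) lay between 0.49 and 0.73 in the fits that lost it. At a false discovery rate of 0.25 no count moved by over 1.5 times. The filter of at least 10 counts in every library removed Cd36 and Adipoq. With the compared time points alone, Cd36 was not tested at 4 or at 8 h.

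Libraries share replicate numbers in the labels, but same-numbered libraries did not deviate together (r from -0.03 to 0.05 over 9 pairs, 0 of 9 over 0.1, and 4 of 9 best matched to their own number). With the replicate number as a block, the counts stayed at 3 higher and 4 lower at 4 h and 3 higher and 6 lower at 8 and at 24 h, and Pparg at 24 h changed by -2.04. Depth limited Cd36 and Adipoq, whose 95% intervals at 4 h, 0.385 to 2.30 and 0.684 to 1.61 times vehicle, leave room for changes in either direction.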
